A study of Mus musculus with 4 samples.

Results

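Lgsn encodes lengsin, a protein named for the lens and for its resemblance to glutamine synthetase. It is 1 of the 56748 genes measured in whole lenses of young mice carrying a hyperactive platelet-derived growth factor receptor beta (PDGFRβ) and in lenses of control mice. The gene was picked because its level in these same libraries was lower in mutant than in control lenses. That difference is therefore described here without a test.

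RNA was sequenced from lenses pooled from several mice at 10 to 12 days of age, giving 4 libraries in all, 2 per group. The mutant pools are labelled Fsp1-cre;Pdgfrb+/D849V, a genotype in which Cre recombinase under the Fsp1 (S100a4) promoter releases the activating D849V allele, which is then read from the endogenous Pdgfrb promoter. The control pools are labelled Fsp1-cre;Pdgfrb+/+, although the study's methods describe control pools that also held Pdgfrb+/+ and Pdgfrb+/D849V mice without Cre. All mice were of the FVB/N background, the colony also carried a Cre-dependent tdTomato reporter, and neither the Fsp1-cre nor the D849V allele is limited to the lens.

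The lens grows throughout life by adding fiber cells at its surface. Epithelial cells at the equator elongate, fill with crystallins, build a beaded filament from Bfsp1 and Bfsp2 beside the vimentin network, and lose their nuclei and organelles. Lengsin belongs to the glutamine synthetase family but has no known glutamine synthetase activity. It appears late in fiber differentiation and is known to bind vimentin and Bfsp2.

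In the deposited annotation Lgsn (ENSMUSG00000050217) lies on the plus strand of chromosome 1, from 31215482 to 31243806 of the mm39 build. Its span is 28325 bases, and the exon length used for its values is 1937 bases. The same length belongs to transcript Lgsn-201 in the GENCODE annotation of the older GRCm38 build, which has 5 exons, of which the last holds 1395 bases, and an open reading frame of 563 residues. The predicted protein is longer than that of its relative Glul, the working glutamine synthetase, at 373 residues. Their best local alignment covered 153 aligned positions, of which 41 (26.8%) were identical. None of the 1907 words of 31 bases in the Lgsn-201 sequence occurred on the same strand in a transcript of another gene (0 of 1907). In the GRCm38 annotation, 280 of the 1937 exon bases (14.5%), all in the last exon, overlapped exons of 4931428L18Rik on the opposite strand.

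The sequence before the gene start is shown because it is where transcription of the gene with the lowest fold change among well-expressed protein-coding genes begins. RefSeq gives it for GRCm38.p6 at chr1:31176185-31176400 on the plus strand, written here 5′ to 3′, with the 6 letters of a TATA box in capitals.
Lgsn: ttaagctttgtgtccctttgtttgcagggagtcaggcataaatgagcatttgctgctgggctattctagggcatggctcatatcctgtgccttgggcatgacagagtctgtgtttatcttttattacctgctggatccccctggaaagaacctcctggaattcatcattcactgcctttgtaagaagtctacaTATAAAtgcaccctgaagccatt
Both strands of this window were searched for 3 motifs. TATAAA occurred 1 time, starting 23 bases before the gene start, and the same letters were present in 9.8% of the 32851 RefSeq promoter windows cut to the same length. Neither the Maf recognition letters TGCTGA nor the heat shock element core GAANNTTC occurred in the window, against 14.2% and 5.6% of all windows. These matches describe letters only.

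The 4 libraries were of similar depth, between 18561682 and 18878768 reads. These were recovered from the deposited FPKM values, a unit that scales the fragments of a gene by its exon length and by the depth of the library. The 16 crystallin genes took 58.6% to 62.9% of these reads, so the dissected tissue was lens by its defining transcripts. Pdgfrb, whose endogenous promoter reads the D849V allele once Cre releases it, was listed at 2.36 and 2.16 FPKM in mutant replicates 1 and 2. In control replicates 1 and 2 it was listed at 2.25 and 1.79 FPKM. Its level does not check the genotype labels. S100a4, whose promoter drives Cre, was listed at 3.84 and 4.37 FPKM in mutant and 2.91 and 1.21 FPKM in control replicates. S100a3, the gene before S100a4 on chromosome 3 and examined after its values were seen, had 1255 and 1009 reads in mutant replicates 1 and 2, 565 reads in control replicate 1 and 0 reads in control replicate 2, where a count of 0 allows up to 3 reads. Control replicate 2 thus stood apart from the other libraries at this gene. Xist was above its mean in mutant replicate 2 and control replicate 1, at 13.1 and 15.6 FPKM, and below it in mutant replicate 1 and control replicate 2, at 7.62 and 5.56 FPKM, so the Xist level of the pools differed within each group.

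Lgsn was lower in both mutant libraries than in either control library. Its level was 19.0 FPKM in mutant replicate 1, 5.54 FPKM in mutant replicate 2, 28.5 FPKM in control replicate 1 and 41.0 FPKM in control replicate 2. The groups did not overlap, which was also the case in the same direction for 2932 of the 15997 genes tested (18.3%). The gap between the higher mutant and the lower control library was 9.46 FPKM. These values rest on 657 and 210 recovered reads in the mutant replicates and 1073 and 1465 in the control replicates. The exact 95% Poisson intervals of the levels, which cover counting error only, were 17.6 to 20.5, 4.81 to 6.34, 26.8 to 30.2 and 39.0 to 43.2 FPKM in the same order. No pair of these intervals overlapped, so all 4 pools differed from each other by more than counting error.

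**Figure D1:**
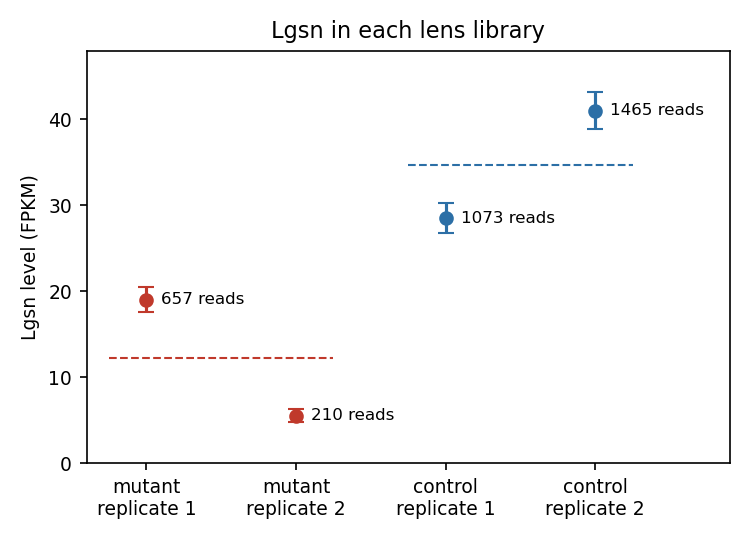
Level of Lgsn (FPKM, linear axis from 0) in each of the 4 libraries, with exact 95% Poisson intervals as bars, the recovered reads beside each point and the mean of each group as a dashed line (12.3 FPKM in mutant, 34.8 FPKM in control). Both mutant points lie below both control points, and the mutant replicates are 3.44-fold apart.

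The mean level was 12.3 ± 9.54 FPKM in mutant and 34.8 ± 8.87 FPKM in control lenses (SD, n = 2 pools each), so the mutant mean was 35.3% of the control mean. On the log2(FPKM + 0.1) scale the means were 3.38 ± 1.25 and 5.10 ± 0.37 (SD, n = 2), a log2 fold change of -1.72. This difference compares with a pooled SD of 0.92 between replicates on the same scale. The ratio of single libraries depended on the pair chosen. Mutant replicate 1 held 66.8% as much as control replicate 1 and 46.4% as much as control replicate 2, whereas mutant replicate 2 held 19.4% and 13.5%. Between the libraries with higher Xist, mutant replicate 2 was 5.14-fold below control replicate 1, and between those with lower Xist, mutant replicate 1 was 2.16-fold below control replicate 2. Since the groups did not overlap, every pairing gives this direction, so these values show only sizes, from 1 pair each.

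The size of the difference turned on mutant replicate 2. Without it the log2 fold change was -0.84, and without mutant replicate 1 it was -2.61. Leaving out control replicate 1 gave -1.99 and leaving out control replicate 2, the pool with no S100a3 reads, gave -1.46. The order of the libraries by Lgsn, from control replicate 2 through control replicate 1 and mutant replicate 1 to mutant replicate 2, set control replicate 2 at the top and at 0 S100a3 reads. S100a3 in that order was listed at 0, 10.9, 26.4 and 19.3 FPKM. The part of Cre itself, or of the transgene, in the level of Lgsn was not tested. In pooled whole lenses, fewer cells that express a gene and less of its RNA per cell cannot be told apart.

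Lgsn was a well-expressed gene of the young lens, though far below the most abundant fiber genes. Its mean over the 4 libraries was 23.5 FPKM, which placed it at rank 731 of all genes and 635 of the protein-coding genes. By library, its rank among all genes was 937 and 2696 in mutant replicates 1 and 2 and 589 and 435 in control replicates 1 and 2. The genes next above it in mean level were Ufc1, Surf4 and Id2, at 23.6, 23.6 and 23.5 FPKM, and those next below were Eif4b, Cdv3 and Gars, at 23.5, 23.5 and 23.4 FPKM. Ufc1, an enzyme of the protein modifier Ufm1, lay between 21.8 and 25.4 FPKM in the 4 libraries, and Surf4, a cargo receptor of the secretory pathway, between 22.4 and 25.6 FPKM. At a like mean, Lgsn ranged from 5.54 to 41.0 FPKM.

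Among the 1495 protein-coding genes with a mean of at least 10 FPKM, Lgsn had the lowest log2 fold change, and among all 1669 genes at that level it was the 3rd lowest. The median of the 1495 was 0.07. Erich5, Nnat, Atp5k and Slc7a2 were also among the lowest, at -0.56, -0.55, -0.54 and -0.52. Over all 15997 genes tested, most of them at lower levels where reads are few, 146 had a lower log2 fold change than Lgsn. These ranks restate the measure that the gene was picked on.

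**Figure D2:**
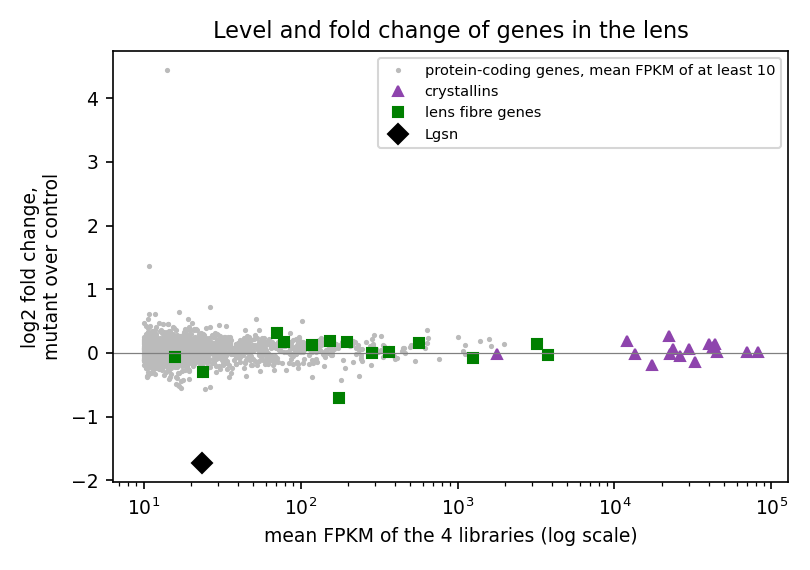
Mean level over the 4 libraries (FPKM, log axis) against the log2 fold change of mutant over control for 1495 protein-coding genes with a mean of at least 10 FPKM, with crystallins as triangles, other lens fiber genes as squares and Lgsn as a diamond. Lgsn lies at -1.72, below all the other genes plotted, and the crystallins lie within -0.19 and 0.26.

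Replicates of Lgsn also lay farther apart than those of nearly every gene of that level. The log2 gap between the mutant replicates was 1.76, a 3.44-fold difference, and ranked 3rd among the 1495 genes, whose median gap was 0.14 and 99th percentile 0.66. Only Gapdh (3.92), a glycolytic enzyme, and Rps27rt (2.42), a ribosomal protein gene, had a larger one. Rpl35a, another ribosomal protein gene, and Hba-a1, an alpha globin, came next at 1.69 and 1.05. The gap between the control replicates, 0.52 or 1.44-fold, ranked 12th, against a median of 0.10 and a 99th percentile of 0.47. Counting error of a single library was 2.61% to 6.90% of its value (SD from the reads), and it was highest in mutant replicate 2.

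**Figure D3:**
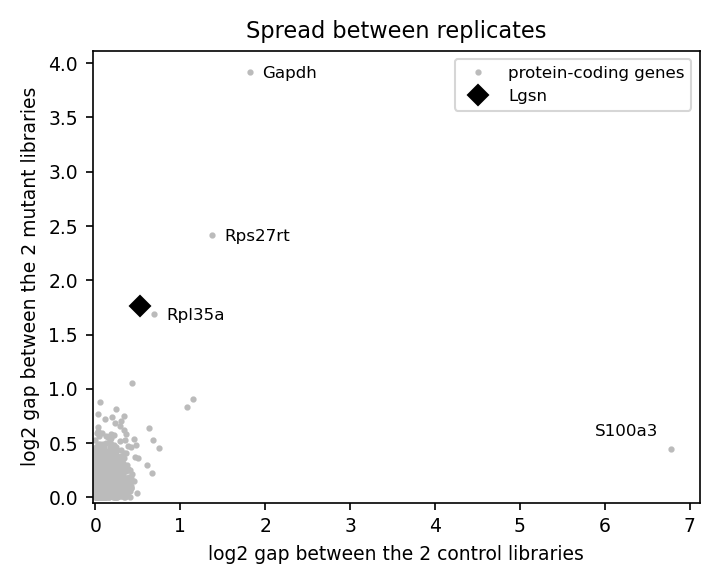
Absolute log2 difference between the 2 control libraries (horizontal axis) and between the 2 mutant libraries (vertical axis) for 1495 protein-coding genes with a mean of at least 10 FPKM. Lgsn, the diamond, lies at 0.52 and 1.76, above the 99th percentile of both gaps, and 4 other genes far from the rest are named, with S100a3 at 6.78 between controls, a gap set by the 0.1 FPKM added to its 0.

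The filament genes Bfsp1, Bfsp2 and Vim did not share the pattern of Lgsn in these libraries. Bfsp1, the filensin subunit of the beaded filament, was listed at 3533 and 3190 FPKM in mutant and 2911 and 3215 FPKM in control replicates 1 and 2. Its log2 fold change of 0.13 ± 0.14 (SE) had an adjusted p of 0.85 by limma. Bfsp2, the phakinin subunit, was listed at 133 and 113 FPKM in mutant and 108 and 116 FPKM in control replicates, a log2 fold change of 0.13 ± 0.12 with an adjusted p of 0.82. Vim, which encodes vimentin, was listed at 294 and 265 FPKM in mutant and 258 and 283 FPKM in control replicates, a log2 fold change of 0.05 ± 0.11 with an adjusted p of 0.94. For all 3 the groups overlapped. Set against Bfsp1 in the same library, Lgsn stood at 0.539% and 0.174% in mutant and 0.979% and 1.28% in control replicates. Against Bfsp2 the shares were 14.3% and 4.91% in mutant and 26.4% and 35.2% in control replicates, and against Vim they were 6.47%, 2.09%, 11.1% and 14.5%. With each of the 3 as reference, the mutant libraries stayed below the control libraries.

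**Figure D4:**
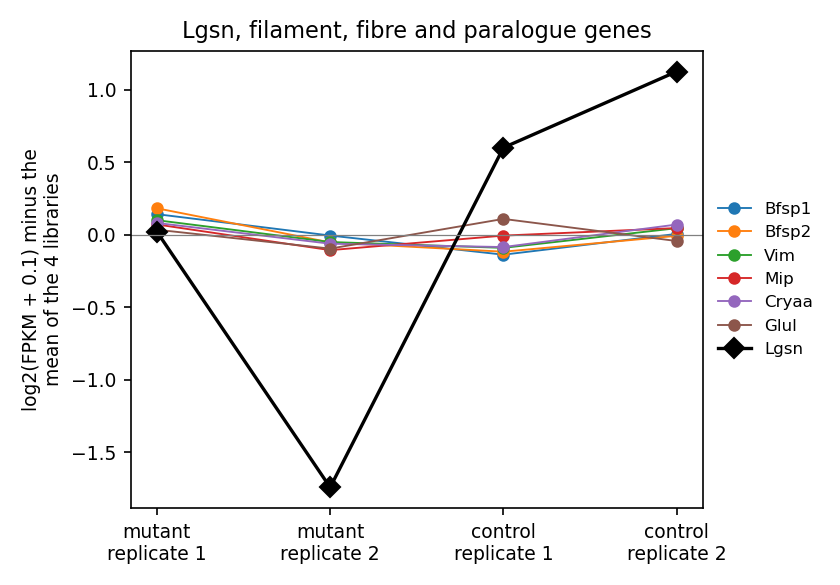
Level of each gene in each library on the log2(FPKM + 0.1) scale minus the mean of its 4 libraries, with lines drawn only to join the points of a gene. Lgsn (black diamonds) spans -1.74 to 1.12, and Bfsp1, Bfsp2, Vim, Mip, Cryaa and Glul stay close to 0.

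Other lens fiber genes lay on either side of 0. Of a list of 16 such genes without the crystallins and Lgsn, 15 were tested, with a median log2 fold change of 0.02 against 0.00 for all genes tested, and 9 lay above 0 and 6 below. None passed an adjusted p of 0.05 by limma, as was the case for all but 6 of the genes tested (0.0375%). At an unadjusted p under 0.05, 0 were higher, against 3.39% of all genes, and 2 were lower, against 2.92%. One of them was Prx. Prx, which encodes periaxin, a scaffold at fiber membranes, was listed at 21.0 and 22.0 FPKM in mutant and 27.0 and 25.6 FPKM in control replicates, a log2 fold change of -0.29 ± 0.09 (SE) with an adjusted p of 0.74 by limma.

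The other abundant fiber genes gave overlapping groups or small differences. Mip, the aquaporin of fiber membranes and the highest of the list, was listed at 3974 and 3515 FPKM in mutant and 3768 and 3906 FPKM in control replicates. Grifin, a lens galectin, was listed at 1428 and 1022 FPKM in mutant and 1241 and 1314 FPKM in control replicates, lowest in mutant replicate 2 as Lgsn was. Lim2, a fiber membrane protein, was listed at 0 in every library. Its annotated span overlaps that of Gm52993, listed between 5.20 and 6.65 FPKM and looked up after the values were seen. How reads shared by overlapping genes were counted is not given in the sources used here. Taken relative to the mean log2 level of the tested fiber genes, Lgsn lay at -3.34 and -4.96 in mutant and -2.64 and -2.23 in control replicates. The group means on this scale differed by -1.72, as they did before the subtraction.

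Crystallins, the structural proteins that make up most of a fiber cell, showed no member past the test. All 16 were tested, at mean levels between 1791 and 81570 FPKM, with a median log2 fold change of 0.01, a range of -0.19 to 0.26, and 0 members at an unadjusted p under 0.05 in either direction. Cryaa and Crygb, the highest of them together with Crygc, had log2 fold changes of 0.02 and 0.01. Crygs, a crystallin made in secondary fibers, was listed at 37320 and 25320 FPKM in mutant and 32180 and 35740 FPKM in control replicates. Lgsn was 0.0510% and 0.0219% of its level in mutant and 0.0885% and 0.115% in control replicates.

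Glul, the glutamine synthetase that lengsin resembles, was a minor transcript of the lens. It was listed at 2.65 and 2.42 FPKM in mutant and 2.80 and 2.51 FPKM in control replicates, from 175 to 206 reads, with a log2 fold change of -0.06 ± 0.13 (SE) and an adjusted p of 0.93 by limma. The groups overlapped. Per length, the mean of Lgsn was 9.06 times that of Glul, and in single libraries it was 7.17 and 2.29 times in mutant and 10.2 and 16.4 times in control replicates.

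Genes that make, carry or use glutamine lay mostly slightly below 0. Of 29 found in the table, 28 passed the filter of a mean FPKM of at least 0.1, and their median log2 fold change was -0.07, with 20 below 0 (71.4%, against 49.3% of all genes tested) and 8 above. One member, Slc1a5, a transporter of neutral amino acids that takes up glutamine, was lower at an unadjusted p under 0.05, near the 2.92% of all genes tested, and 0 were higher, against 3.39%. Slc1a5 was listed at 0.780 and 0.710 FPKM in mutant and 1.05 and 1.30 FPKM in control replicates, a log2 fold change of -0.59 ± 0.19 (SE) with an adjusted p of 0.75 by limma, from 58 to 100 reads. The 3 most abundant members were Slc7a5 and Slc3a2, the subunits of a large neutral amino acid exchanger, and Psat1, an aminotransferase of serine synthesis. Their log2 fold changes were -0.07, 0.03 and -0.13, each smaller than its SE. Gclc, the catalytic subunit of the first enzyme of glutathione synthesis, was at -0.17.

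Transcription factors of lens development showed 1 of 15 members lower at an unadjusted p under 0.05, against 2.92% of all genes tested, and 0 higher, against 3.39%. With 15 members, 1 call does not set the list apart from that background. That member was Mafg, a small Maf protein, at 13.6 and 13.8 FPKM in mutant and 16.7 and 15.8 FPKM in control replicates, a log2 fold change of -0.24 ± 0.09 (SE) with an adjusted p of 0.78 by limma. The list median was -0.03, against 0.00 for all genes tested, and the range was -0.46 to 0.18. Hsf4, the heat shock factor of fiber cells, which the fiber list also holds, had a log2 fold change of 0.18 ± 0.11, and Maf, the large Maf protein that drives crystallin genes, was at 0.00 ± 0.10. Foxe3, a regulator of the lens epithelium, was at -0.03 ± 0.12.

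The genes around Lgsn gave no like difference. The table lists 26 other genes whose start lies within 1 Mb of the start of Lgsn. Of these, 13 were at 0 in every library and 6 passed the filter. Those 6 had a median log2 fold change of -0.07. At an unadjusted p under 0.05 by limma, where 3.39% of all genes tested were higher and 2.92% lower, 0 of the 6 were called. Phf3, a protein that binds RNA polymerase II, was the most deeply covered of them and was listed at 2.41 and 2.19 FPKM in mutant and 2.60 and 2.42 FPKM in control replicates, a log2 fold change of -0.12 with an adjusted p of 0.84 by limma. Ptp4a1, a phosphatase entered in the table under 2 identifiers at overlapping positions, was at -0.04 and -0.10, and its reads cannot be assigned surely to either entry. The pseudogene Gm7893, which lies 11.8 kb from Lgsn and is the nearest gene that was tested, had 9 and 20 reads in mutant and 6 and 10 in control replicates, with a log2 fold change of 0.78 and an adjusted p of 0.81. The remaining tested neighbors, the pseudogenes Gm4850 and Gm6473, were at 0.02 and -0.27 on fewer reads still. 4931428L18Rik, which overlaps Lgsn on the opposite strand, had 4 and 5 reads in mutant and 4 and 1 in control replicates, against 210 to 1465 for Lgsn. These counts do not show how reads in the shared bases were assigned. The part of this overlap in the level of Lgsn was not tested. Whether the counting used strand is not given in the sources used here.

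No gene of that level followed Lgsn closely. Likeness was measured over the 4 libraries as the Euclidean distance between log2(FPKM + 0.1) profiles, each centered on its own mean, for 1494 protein-coding genes with a mean of at least 10 FPKM. A profile that did not vary at all would lie 2.16 from that of Lgsn. The nearest gene, Hba-a1, lay at 1.48 and the 8th nearest at 1.81, against a median of 2.17 over all genes compared. Only 34 of the 1494 had their 4 libraries in the same order as Lgsn.

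Hba-a1, which marks red blood cells, was listed at 19.0 and 9.12 FPKM in mutant and 21.7 and 16.1 FPKM in control replicates, lowest in mutant replicate 2. Nnat, which encodes the membrane proteolipid neuronatin, was second nearest at a distance of 1.64 and was listed at 15.1 and 12.9 FPKM in mutant and 20.4 and 20.6 FPKM in control replicates. Its groups did not overlap and lay close within each group, unlike those of Lgsn. Rpl35a followed at 1.64, Dapl1, an epithelial differentiation gene, at 1.73 and Atp5k, an ATP synthase subunit, at 1.76. The last of the 8 were Smim26, a small mitochondrial protein, the crystallin Crybb2, and Tomm7, of the mitochondrial import channel, at 1.79, 1.80 and 1.81. All 8 were lowest in mutant replicate 2, as the measure of likeness favors, and in none was the difference between libraries as large as in Lgsn.

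**Figure D5:**
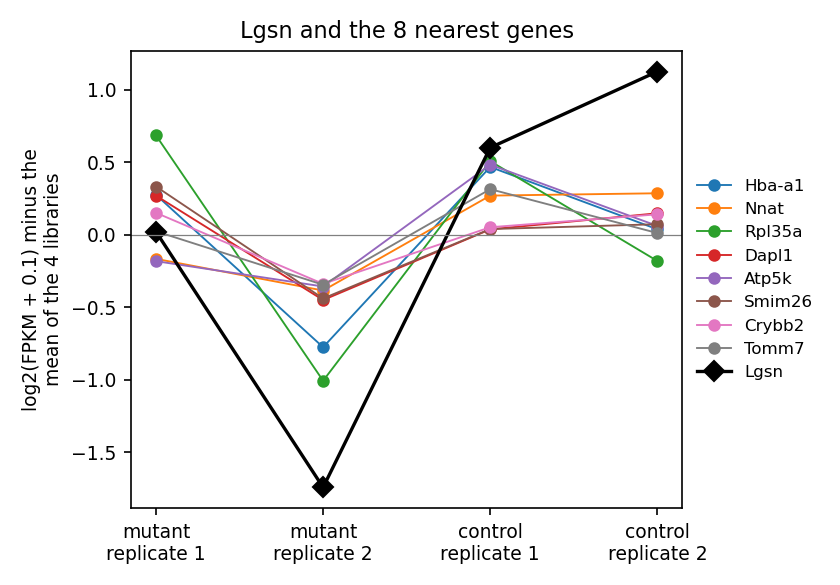
Level of Lgsn and of its 8 nearest genes in each library, on the log2(FPKM + 0.1) scale minus the mean of each gene's 4 libraries, with lines drawn only to join the points of a gene. All 9 genes are lowest in mutant replicate 2, where Lgsn lies at -1.74, and Lgsn is highest in control replicate 2, at 1.12.

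Markers of other cells were mostly at low levels, though Hba-a1 and Acta2 had means of 16.5 and 11.2 FPKM. Some markers differed between the libraries that set the size of the Lgsn difference. Of 5 rod photoreceptor genes, 2 passed the filter, and the summed level of the list was 0.0875 and 1.81 FPKM in mutant and 0.902 and 0.118 FPKM in control replicates, from 12, 206, 102 and 14 reads. Crx, a photoreceptor transcription factor, had 18 reads in mutant replicate 2 and 10 in control replicate 1, against 0 in each of the others. The retinal list was thus highest in the library with the lowest Lgsn, but control replicate 1 was above mutant replicate 1 in the retinal list and in Lgsn alike. Its part in the level of Lgsn was not tested.

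Red cell genes summed to 25.2 and 17.1 FPKM in mutant and 34.9 and 21.5 FPKM in control replicates, with 3 of 4 tested and Hba-a2 listed at 0 throughout. Beside Hba-a1, the beta globins Hbb-bs and Hbb-bt had log2 fold changes of -0.24 and -0.25. Their order was not that of Lgsn, and their part in its level was not tested. The 5 endothelial genes summed to between 1.17 and 2.69 FPKM, lowest in mutant replicate 2, with all 5 log2 fold changes below 0. At an unadjusted p under 0.05 by limma, where 3.39% of all genes tested were higher and 2.92% lower, 0 of the 5 were called. The highest of them, Cdh5, Tie1 and Pecam1, which encode junction and surface proteins of vessels, were at -0.52, -0.70 and -0.12. Of 4 pericyte genes, 2 were tested. Rgs5 was lower at an unadjusted p under 0.05 by limma, against 2.92% of all genes tested, with a log2 fold change of -0.59 and an adjusted p of 0.74. Acta2 was at 0.17. With so few members, 1 call does not set the list apart from that background. Macrophage genes summed to 1.46 and 1.13 FPKM in mutant and 0.616 and 0.358 FPKM in control replicates. Of 5 such genes, C1qa and C1qb passed the filter of a mean FPKM of at least 0.1. C1qb, with means of 0.342 FPKM in mutant and 0.0722 FPKM in control, passed only through its mutant libraries. The filter thus favored its direction, and its call is not read as a result. The log2 fold changes of C1qa and C1qb were 1.04 and 1.37, on 1 to 19 reads per library. Both were higher at an unadjusted p under 0.05 by limma, against 3.39% of all genes tested. Their adjusted p-values by limma were 0.76 and 0.74. Ptprc, which marks all white blood cells, had at most 2 reads in any library.

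Lens epithelial genes, the source cells of new fibers, summed to 132 and 159 FPKM in mutant and 150 and 152 FPKM in control replicates. All 6 were tested, with a median log2 fold change of -0.05, and their sum was highest in mutant replicate 2. At an unadjusted p under 0.05 by limma, where 3.39% of all genes tested were higher and 2.92% lower, 0 of the 6 were called. After Foxe3, the highest were Npnt, a matrix protein, at -0.04 and Cdh1, which encodes E-cadherin, at -0.38. Pigment cell genes summed to between 0.615 and 1.27 FPKM, with Tyr at 0 or 1 read per library, and corneal genes to between 0.181 and 0.898 FPKM, with Krt12 at 0 in 3 libraries. The shares of these cell types in the pools, and their part in the level of Lgsn, were not tested.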

How the data were processed

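Lenses pooled from several mice were sequenced as poly(A) RNA, with 2 mutant and 2 control libraries. The authors' provider used HISAT2 for alignment, featureCounts for the gene counts and DESeq2 for the tests. The deposited table holds FPKM per gene, on mm39 per the labels. Groups came from the genotype labels. Lgsn, the gene lists and the rule for named genes were chosen with earlier results of these data known. Named genes were Lgsn, Glul, Bfsp1, Bfsp2 and Vim, list members at an unadjusted p under 0.05 or among the 3 highest, neighbors within 1 Mb, the 8 genes nearest in profile, the 3 genes next above and below in level, and Pdgfrb, S100a4 and Xist. Others were chosen after their values were seen, and some list members are not reported here.

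Genes whose mean FPKM reached 0.1 were fitted on log2(FPKM + 0.1) with limma 3.58.1 in R 4.3.3 (lmFit, eBayes with a trend) with two-sided tests and Benjamini-Hochberg adjustment over 15997 genes. A fold change on this scale understates that of low genes. Since pools may share mice or litters, p-values measure only the spread between pools. Whole reads were recovered from FPKM and gene length. All values above 0 (100%) fell within 0.01 of a whole number, and voom on these reads called 14 genes at an adjusted p under 0.05, against 6. Library depth was 18561682 to 18878768 reads. Other pseudocounts, filters, scalings, a replicate block, a covariate for Xist level and each library left out were tried. Scripts were tested on simulated data. Transcript and promoter features used GRCm38 annotation, since no mm39 sequence was used here.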

Additional observations from a re-analysis of the deposited data

How the results depend on the processing

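The log2 fold change of Lgsn ranged from -2.61 to -0.84 over 15 alternatives, and its direction with a library left out is fixed by groups that do not overlap. Both ends come from leaving out a mutant library (without mutant replicate 1, -2.61, and without mutant replicate 2, -0.84), and under scalings, pseudocounts, filters and voom it lay between -1.76 and -1.62. Relative to fiber genes it ranged from -2.53 to -0.90. The number of genes at an adjusted p under 0.05, which was 6, was 2 with a pseudocount of 1 or 0.01, a filter at 1 FPKM or no trend, 1 without a filter or with the Xist covariate, 14 with voom and 3 with the replicate block, and 0 to 0 with 1 library left out. No member of the fiber, crystallin, glutamine, transcription factor or neighbor lists was among these genes under any alternative. Genes at an unadjusted p under 0.05 numbered 326 higher and 291 lower with the filter at 1 FPKM, where fewer genes were tested, against 542 and 467. Leaving out 1 library moved the fiber median from 0.02 to between -0.041 (without control replicate 1) and 0.20 (without mutant replicate 2). The glutamine median stayed below 0, and the neighbor median, over 6 genes of few reads, ranged from -0.26 to 0.33. The replicate numbers were read as labels only. Deviations of same-numbered libraries had a correlation of -0.0051 over genes. This is 1 comparison, which cannot show whether same-numbered libraries shared a batch or litter. With the replicate block the fold change of Lgsn was -1.72 as before. With 2 pools per group, a single pool decides much of each value, and lists at low FPKM rest on few reads.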
